A study of Mus musculus with 8 samples.

Results

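The collagen family was followed in 8 whole mouse hearts taken at embryonic day 10.5 (E10.5) and sequenced as total RNA. Members were the protein-coding genes whose symbol has the form Col, a type number, the letter a and a chain number, after the Entrez gene numbers of the count table were matched to RefSeq symbols; 44 of 27179 genes met this rule. The labels give 5 hearts as wild type (Kat6a+/+, written Kat6a WT) and 3 as homozygous for loss of Kat6a (Kat6a-/-, written Kat6a KO). The gene Kat6a (Moz) codes for an enzyme that acetylates histones. The strain, the litter and the part of Kat6a removed by the allele were not known here, and the sex of the embryos was read only from RNA. Nothing in the labels states that the hearts came from separate litters, so p-values measure the spread between these samples, which may in part be technical.

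Collagens are secreted or membrane-bound proteins in which 3 chains wind into a triple helix. Fibrillar collagens such as types I, III and V form the fibres of loose connective tissue, and type II those of cartilage. Type IV collagens form the sheet-like network of basement membranes, the thin layers under epithelia and endothelia and around muscle cells. Other types sit on fibrils, form beaded filaments or hexagonal nets, or span the cell membrane. In the heart at this stage, collagen-bearing matrix lies in the jelly and cushions between endocardium and myocardium, beneath the epicardium, and in the basement membranes of each layer.

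Libraries held 19911803 to 34539787 counts. Markers of heart muscle (Tnnt2, Actc1, Myh6, Myh7, Nppa and Myl7) summed to 28868 to 30593 CPM (counts scaled to a common library size) in Kat6a WT and 29987 to 33224 CPM in Kat6a KO, and all 5 markers of skeletal muscle progenitors were under 1 CPM in each heart. RNA of Xist, made by female cells, was present in Kat6a WT replicates 4 and 5 and reached at most 0.372 CPM in the remaining 6, so every Kat6a KO heart lacked it. The count over the whole Kat6a gene was 145 ± 6.92 CPM in Kat6a WT and 137 ± 3.81 CPM in Kat6a KO, which does not check the genotype labels. In the numbering of the descriptions the Kat6a KO hearts all come before the Kat6a WT hearts, so an effect of that order cannot be told apart from genotype. Values with ± are a mean and its SD over 5 Kat6a WT or 3 Kat6a KO hearts unless stated.

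Collagen transcripts took 0.621% to 0.736% of all counts of a heart, and basement membrane and fibrillar chains made up most of that. Levels are compared between genes as CPM per kilobase, that is, CPM divided by the gene length the authors listed. In Kat6a WT, Col4a1, a chain of the main basement membrane collagen, was highest at 220.0 ± 8.27 CPM per kilobase. Col18a1, a basement membrane collagen that carries heparan sulphate chains, followed at 167 ± 4.83, and Col2a1, the collagen of cartilage fibrils, at 165 ± 20.9 CPM per kilobase. Col4a2, the partner chain of Col4a1, stood at 126 ± 4.30 and Col3a1, a fibrillar collagen of soft tissue, at 114 ± 17.6 CPM per kilobase. Neither Col18a1 and Col2a1 nor Col4a2 and Col3a1 differed by more than their spread between hearts. Below these 5 came Col4a5 at 55.3 ± 3.49, Col1a2 at 51.0 ± 14.2, Col1a1 at 49.6 ± 11.8, Col5a1 at 45.9 ± 3.34 and Col5a2 at 36.9 ± 4.14 CPM per kilobase. Neighbours among the first 4 of these were within an SD of each other, and the SD ranges of Col5a1 and Col5a2 did not overlap. The 10 genes of highest CPM held 90.9% of summed collagen CPM in Kat6a WT. Of the 39 collagen genes that passed the count filter, 16 reached 10 CPM per kilobase and 13 stayed under 1.

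**Figure D1:**
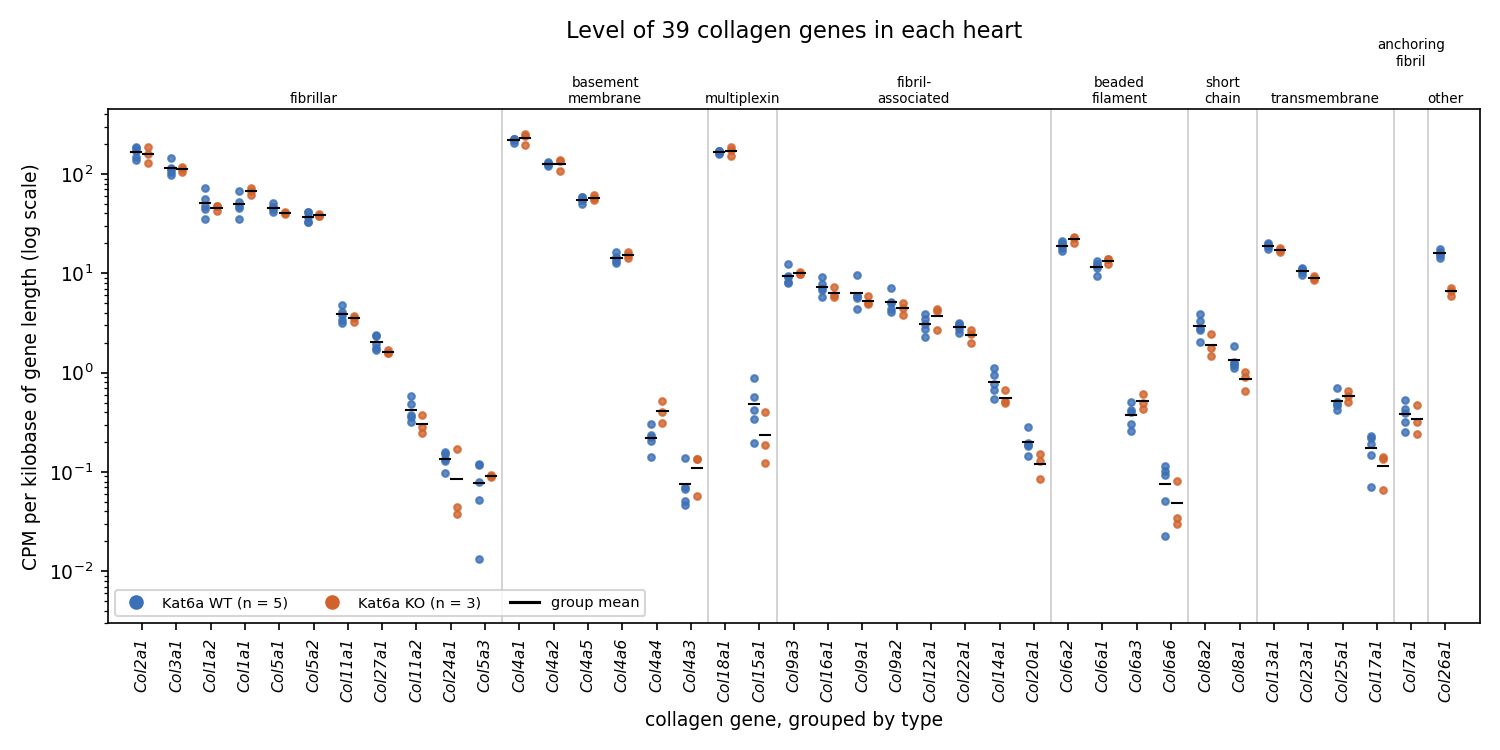
Level of each collagen gene that passed the count filter, as CPM per kilobase of gene length on a log axis, grouped by type of collagen. Each point is 1 heart, blue for Kat6a WT and orange for Kat6a KO, and black lines are group means; Col26a1 is at the far right, with its 3 Kat6a KO hearts below all 5 Kat6a WT hearts.

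Among the 10 genes of highest level per kilobase, Kat6a WT hearts varied most in the fibrillar chains of types I and III. Between Kat6a WT hearts the SD was 27.8% of the mean for Col1a2, 23.8% for Col1a1 and 15.4% for Col3a1. For Col18a1 it was 2.90% and for Col4a1 3.76%, with Col4a2 between them, below the median of 8.16% over all tested genes. Kat6a WT replicate 1 was lowest and replicate 2 highest of the wild-type hearts for Col1a1, Col1a2 and Col3a1 alike. These spreads are of wild-type hearts only and did not keep their order in Kat6a KO. There Col4a1 was at 1511 ± 201 CPM, Col1a1 at 314 ± 25.6 CPM and Col1a2 at 234 ± 14.1 CPM. In the edgeR fit over both genotypes a given difference stood out less in the type I genes than in Col4a1. The SE of the log2 fold change was 0.20 for Col1a1, 0.23 for Col1a2 and 0.07 for Col4a1.

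Among the collagens, Col26a1 fell in Kat6a KO hearts and was the only member past the threshold. The test was edgeR's quasi-likelihood test over all genes with Benjamini-Hochberg adjustment, at a threshold of 0.05. Of 39 members tested, 1 fell, 0 rose and 38 did not pass. Over all 15086 genes tested, 403 (2.67%) passed and 186 (1.23%) fell, so the share of collagens called was near the background. The median log2 fold change of Kat6a KO over Kat6a WT was -0.14 over the 39 members, with 24 below 0 and 15 above, and -0.0001 over all genes. At an unadjusted p under 0.05 in the edgeR test there were 12 of 39 members, a larger share than the 14.2% of all genes. Counts at that p for single types and lists of genes, given further on, stand beside the same 14.2%. The values of the 3 Kat6a KO hearts did not overlap those of the 5 Kat6a WT hearts in 6 of 39 members, beside 9.59% of all genes. Of these 6, 1 was higher in Kat6a KO, beside 4.77% of all genes. The other 5 were lower, a larger share of the 39 than the 4.81% of all genes. These differences in share were not tested. The count of calls depended on the tool and on a single heart: DESeq2 called 6 members, limma voom 3 and edgeR without a count filter 5, and leaving out Kat6a WT replicate 1 also gave 5. The further genes in these calls were drawn from Col23a1, Col4a4, Col5a1, Col8a1 and Col8a2, described with their types.

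**Figure D2:**
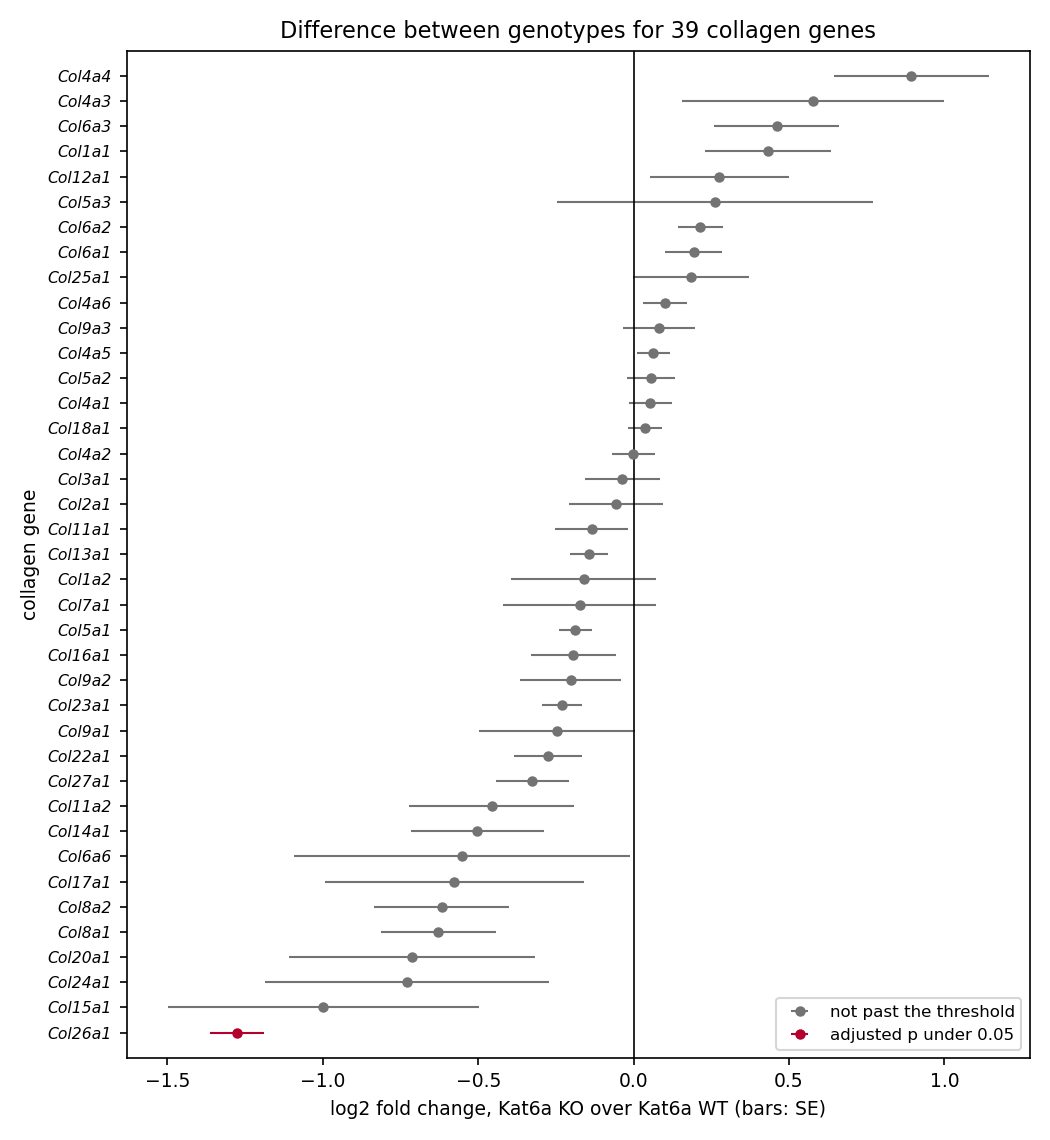
Log2 fold change of Kat6a KO over Kat6a WT for the 39 collagen genes tested, sorted, with bars of 1 SE (edgeR quasi-likelihood fit, 5 and 3 hearts). Red marks the gene past an adjusted p of 0.05, Col26a1 at -1.28; Col4a4 at the top has 0.89.

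Col26a1 (chromosome 5 from 136741759 to 136883376, mm10) encodes type XXVI collagen, a short secreted collagen with an EMI domain. It stood at 42.8, 38.2, 41.7, 44.2 and 48.0 CPM in Kat6a WT replicates 1 to 5. In Kat6a KO replicates 1 to 3 it stood at 17.9, 19.4 and 15.97 CPM. The lowest wild-type heart was thus well above the highest Kat6a KO heart. It fell by 1.28 ± 0.09 on the log2 scale (SE; edgeR, adjusted p = 1.12e-08), lower in 3 of 3 Kat6a KO hearts. Leaving out single hearts gave log2 fold changes of -1.35 to -1.21, and leaving out both hearts with Xist RNA gave -1.21. Per kilobase, Col26a1 ranked 13th of 44 members in Kat6a WT at 15.9 ± 1.32 CPM per kilobase and stood at 6.56 ± 0.64 in Kat6a KO. In bulk RNA, fewer cells that express the gene and less RNA per cell cannot be told apart.

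None of the tested genes near Col26a1, or related to it, passed in the edgeR fit. Of 24 genes of the table within 500 kb, 18 were tested and 0 passed (edgeR quasi-likelihood test; 0 also had an unadjusted p under 0.05, and 0 passed with DESeq2). The nearest tested gene, Ift22, a component of the transport machinery of cilia, stood at 10.3 CPM in Kat6a WT and 11.4 CPM in Kat6a KO. Of 6 other genes whose proteins carry an EMI domain (Emid1, Emilin1, Emilin2, Emilin3, Mmrn1 and Mmrn2), 0 passed and 2 had an unadjusted p under 0.05. Emid1, the closest relative by name, had a log2 fold change of -0.15 ± 0.14 (SE; edgeR adjusted p = 0.702), from 6.93 ± 0.48 CPM in Kat6a WT to 6.24 ± 1.09 CPM in Kat6a KO. In the RefSeq table Col26a1 overlaps the long non-coding genes Gm30654 and Gm20485 over 7452 and 6740 bases. Neither is listed in the count table, and with the strand setting of the counting not given, their reads could not be separated from those of Col26a1.

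Some markers of epicardium, cushion mesenchyme, macrophages and endothelium passed the test, beside 1.23% of all genes that fell and 1.44% that rose. Those of endothelium are given with type VIII collagen. Of 6 epicardial markers (Wt1, Tbx18, Tcf21, Bnc1, Lrrn4 and Upk3b), 5 fell, and their summed level was 381 to 443 CPM in Kat6a WT and 266 to 310.0 CPM in Kat6a KO. Of 6 cushion mesenchyme markers (Twist1, Sox9, Msx1, Postn, Snai2 and Prrx2), Twist1 and Msx1 fell, and the sum was 320 to 448 CPM in Kat6a WT and 338 to 353 CPM in Kat6a KO. All 5 macrophage markers (Adgre1, C1qa, C1qb, Csf1r and Laptm5) rose, with sums of 11.1 to 20.7 and 30.1 to 37.3 CPM. No marker of the epicardium, cushion mesenchyme and macrophage lists was at 0 in all hearts. Liver markers (Alb, Afp, Apoa1, Ttr and Hnf4a) summed to 0.372 to 1.62 CPM in Kat6a WT and 1.27 to 14.5 CPM in Kat6a KO, with 0 of 5 past the threshold. Erythroid markers summed to 3232 to 13292 CPM and 4471 to 7711 CPM. Neural crest and glia markers summed to 3.52 to 4.88 CPM and 3.73 to 5.69 CPM. Those of pharyngeal endoderm and surface epithelium (Epcam, Cdh1, Krt8, Foxa2 and Trp63) summed to 44.3 to 69.5 CPM and 60.2 to 62.0 CPM. Nearly all of the last sum was Krt8, at 53.2 ± 9.35 CPM in Kat6a WT and 60.0 ± 0.89 CPM in Kat6a KO. The other 4 of its 5 genes were under 1 CPM in each heart. In each of these lists 0 passed the threshold. The part of these cell types in the change of Col26a1 was not tested.

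**Figure D3:**
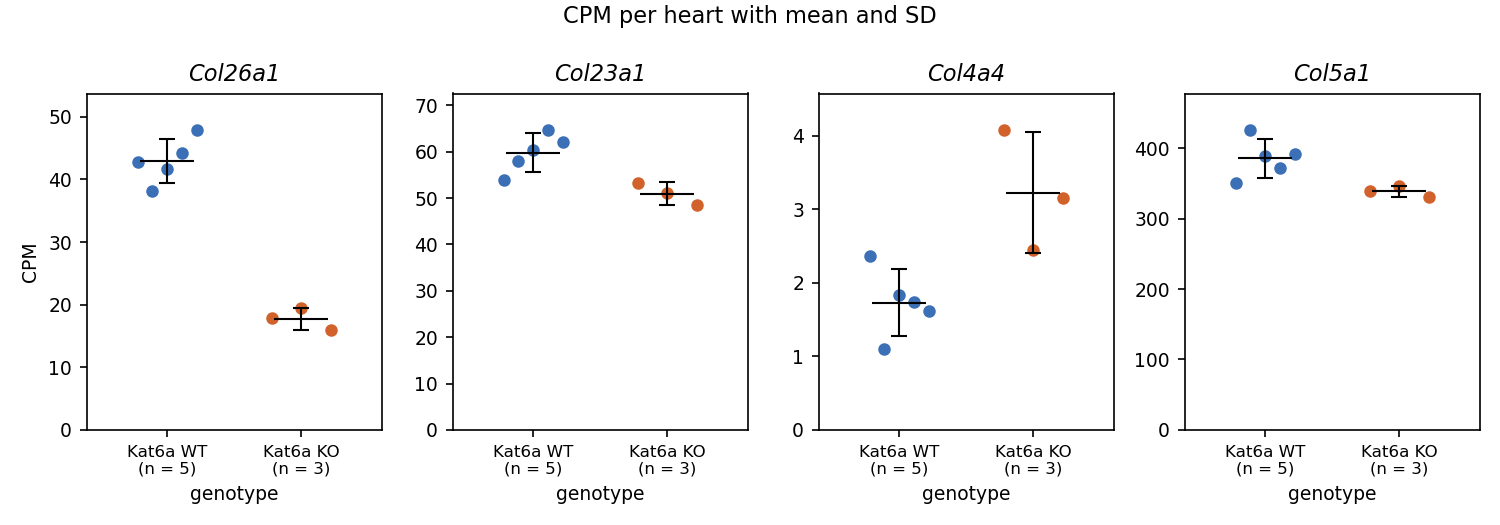
CPM of Col26a1 and of the 3 collagen genes of smallest p that missed the threshold (Col23a1, Col4a4 and Col5a1), each point 1 heart, with the mean and SD of each genotype; each axis starts at 0. Col26a1 lies at 38.2 to 48.0 CPM in Kat6a WT and 15.97 to 19.4 CPM in Kat6a KO, and the groups of the other 3 genes lie closer together without overlapping.

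No fibrillar collagen gene passed the test, while the ratio of the 2 chains of type I collagen did not overlap between the genotypes. Of 11 fibrillar genes tested, 0 rose and 0 fell (2 had an unadjusted p under 0.05), with a median log2 fold change of -0.13. Type I collagen, the most widespread fibrillar collagen, is built from chains of Col1a1 and Col1a2. Col1a1 (chromosome 11, 94936224 to 94953042) stood at 167, 317, 212, 222 and 248 CPM in Kat6a WT replicates 1 to 5 and at 337, 287 and 319 CPM in Kat6a KO replicates 1 to 3. Col1a2 (chromosome 6, 4505618 to 4541543) stood at 183, 375, 227, 243 and 285 CPM in the same wild-type hearts and at 243, 218 and 242 CPM in the Kat6a KO hearts. For each gene alone the groups overlapped. The log2 fold changes were 0.43 ± 0.20 for Col1a1 (SE; edgeR adjusted p = 0.415) and -0.16 ± 0.23 for Col1a2 (adjusted p = 0.838).

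The ratio of the chains within a heart varied less than either level. Divided by gene length, Col1a1 over Col1a2 was 0.997, 0.924, 1.02, 1.00 and 0.952 in Kat6a WT replicates 1 to 5, close to equal levels. It was 1.52, 1.44 and 1.44 in Kat6a KO replicates 1 to 3. All 3 Kat6a KO ratios lay above all 5 wild-type ratios, with means of 1.46 ± 0.05 and 0.979 ± 0.04. This ratio needs no scaling between libraries, and its fold difference lay between 1.47-fold and 1.51-fold on leaving out each heart and was 1.49-fold without both hearts with Xist RNA. The ratios of 4 pairs of chains were computed as a description, and no test is given for them. How often ratios of other gene pairs fail to overlap was not computed, so non-overlap of a ratio has no background here. Of 18 tested genes within 500 kb of Col1a1, looked up after the ratio was seen, 0 passed the edgeR test and 2 had an unadjusted p under 0.05.

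**Figure D4:**
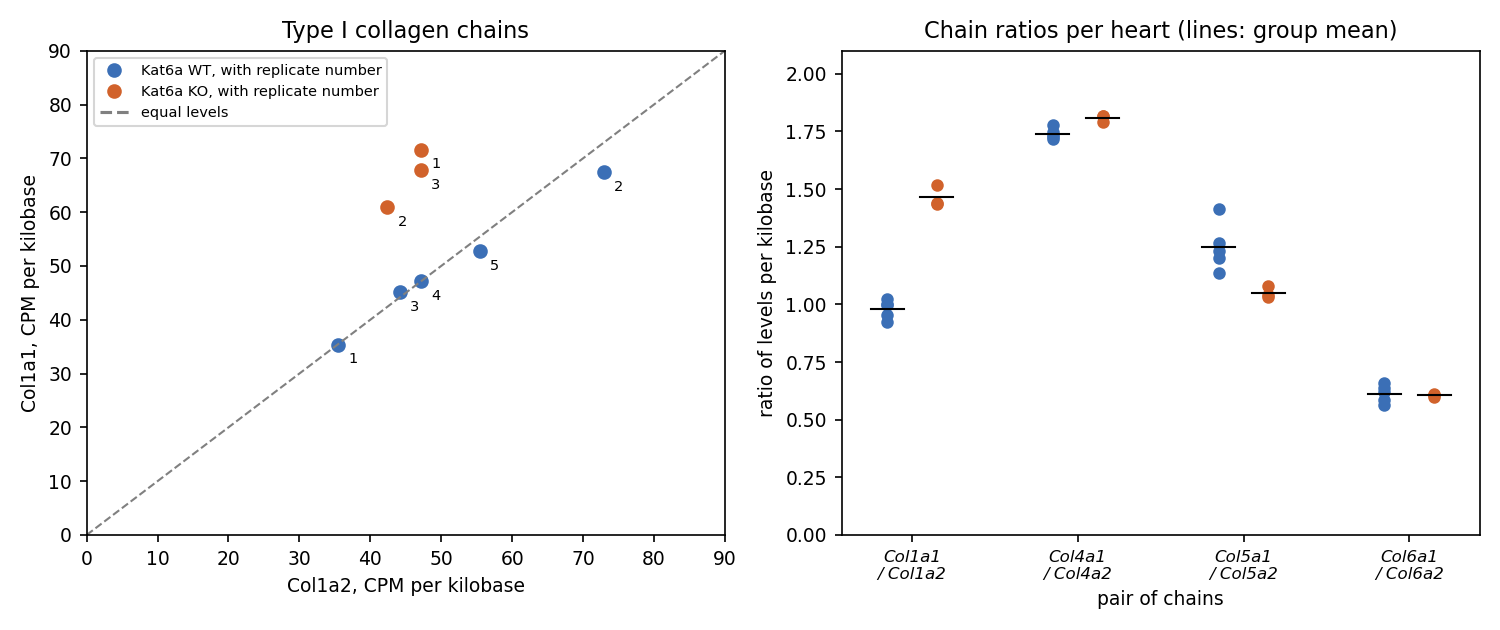
Left, level of Col1a1 against Col1a2 in each heart, in CPM per kilobase, with the replicate number beside each point and a dashed line of equal levels; the 5 Kat6a WT hearts lie near the line and the 3 Kat6a KO hearts above it. Right, ratio of the levels per kilobase for 4 pairs of chains in each heart, with group means as black lines; Col1a1 over Col1a2 is 0.924 to 1.02 in Kat6a WT hearts against 1.44 to 1.52 in Kat6a KO hearts.

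The chains of type V collagen, which sits within type I fibrils and limits their width, also had ratios that did not overlap between the genotypes, with a smaller difference. Col5a1 (chromosome 2, 27886381 to 28039510) stood at 350.1, 426, 388, 372 and 391 CPM in Kat6a WT replicates 1 to 5. In Kat6a KO replicates 1 to 3 it stood at 339, 347 and 330.3 CPM, just under the lowest wild-type heart. Its log2 fold change of -0.19 ± 0.05 did not pass (SE; edgeR adjusted p = 0.0710), and it was called by DESeq2 (0.0317), by limma voom (0.0438), without the count filter (0.0289) and without Kat6a WT replicate 1 (0.0124). Col5a2 (chromosome 1, 45374331 to 45503282) stood at 218, 272, 216, 243 and 271 CPM in Kat6a WT and at 247, 262 and 252 CPM in Kat6a KO, with overlapping groups. Col5a1 over Col5a2 per kilobase was 1.14 to 1.41 in Kat6a WT hearts against 1.03 to 1.08 in Kat6a KO hearts.

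Type II and III collagen transcripts overlapped between the genotypes. Col2a1 (chromosome 15, 97975602 to 98004724) stood at 956, 766, 935, 708 and 867 CPM in Kat6a WT and at 814, 962 and 668 CPM in Kat6a KO. The change was -0.06 ± 0.15 on the log2 scale (SE; edgeR adjusted p = 0.923). Markers of cartilage and notochord (Acan, Matn1, Matn4, Cnmd, T and Noto) summed to only 3.70 to 6.32 CPM in Kat6a WT and 3.56 to 4.82 CPM in Kat6a KO, with Noto at 0 counts in all hearts. Col3a1 (chromosome 1, 45311538 to 45349706), whose neighbour Col5a2 lies 24624 bases away, stood at 537, 797, 585, 627 and 637 CPM in Kat6a WT and 625, 649 and 588 CPM in Kat6a KO. Of the lower fibrillar chains, Col27a1 was 12.9 to 18.4 CPM in Kat6a WT and 12.0 to 12.9 CPM in Kat6a KO, where the highest Kat6a KO heart was barely under the lowest wild-type heart (log2 fold change -0.33 ± 0.12, edgeR adjusted p = 0.180). Col11a1, which forms thin fibrils with type II collagen, had a log2 fold change of -0.13 ± 0.12. Col11a2, Col24a1 and Col5a3 were all at or under 2.37 CPM on average.

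No basement membrane collagen of type IV passed the test. Of 6 genes, 0 passed in either direction (1 had an unadjusted p under 0.05). The 6 chains are encoded in 3 neighbouring pairs: Col4a1 and Col4a2 on chromosome 8 overlap by 85 bases, Col4a3 and Col4a4 on chromosome 1 by 114 bases, and Col4a5 and Col4a6 on chromosome X lie 1274 bases apart. Col4a1 (11198423 to 11312889) stood at 1363, 1498, 1481, 1447 and 1487 CPM in Kat6a WT replicates 1 to 5 and at 1593, 1657 and 1281 CPM in Kat6a KO replicates 1 to 3. Col4a2 (11312805 to 11449287) stood at 772, 839.5, 809.5, 804 and 837 CPM and at 864, 886 and 686 CPM in the same order. Kat6a KO replicate 3 was the lowest of all 8 hearts for both genes, and the other Kat6a KO hearts were the highest. Their log2 fold changes were 0.05 ± 0.07 and -0.001 ± 0.07 (SE; edgeR adjusted p = 0.799 and 0.997). Without Kat6a KO replicate 3 that of Col4a1 was 0.15, and it did not pass then either. Kat6a KO replicate 3 also had the most RNA of Afp, a liver marker, at 12.1 CPM beside 0.661 and 1.04 CPM in the other Kat6a KO hearts and at most 0.566 CPM in Kat6a WT (edgeR adjusted p = 0.176). Its part in the levels of that heart was not tested.

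The 2 chains moved together from heart to heart. Per kilobase, Col4a1 over Col4a2 was 1.72 to 1.78 in Kat6a WT and 1.79 to 1.82 in the Kat6a KO hearts, so the groups did not overlap although their means, 1.74 ± 0.02 and 1.81 ± 0.01, differed by only 1.04-fold. Reads in the 85 bases that both genes share could count for either. Col4a5 stood at 359 ± 22.7 CPM in Kat6a WT and 375 ± 18.9 CPM in Kat6a KO, and Col4a6 at 94.9 ± 9.60 and 102 ± 6.11 CPM. Both lie on the X chromosome, and in the wild-type hearts with Xist RNA they were at 354 and 384 CPM (Col4a5) and 96.1 and 109.9 CPM (Col4a6), within or just above the range of the other hearts. Col4a3 and Col4a4, chains of the mature glomerular basement membrane of the kidney, were near the limit of detection. Col4a4 (chromosome 1, 82448419 to 82587034) stood at 2.37, 1.10, 1.83, 1.74 and 1.62 CPM in Kat6a WT and at 4.08, 2.44 and 3.15 CPM in Kat6a KO, all 3 above the highest wild-type heart. Its log2 fold change of 0.89 ± 0.25 did not pass (SE; edgeR adjusted p = 0.0619), and it was called by DESeq2 (0.0335), limma voom (0.0425), without the count filter (0.0324) and without Kat6a WT replicate 1 (0.0316).

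The multiplexins, collagens of the basement membrane zone whose last domain can be released as an endostatin-like fragment, did not pass. Col18a1 (chromosome 10, 77052178 to 77166530) stood at 926, 977, 948, 988 and 991 CPM in Kat6a WT and at 1002, 1084 and 885 CPM in Kat6a KO, again with Kat6a KO replicate 3 lowest of all hearts. The change was 0.04 ± 0.06 on the log2 scale (SE; edgeR adjusted p = 0.838). Col15a1 was low, at 1.05 to 4.64 CPM in Kat6a WT and 0.661 to 2.11 CPM in Kat6a KO, with an edgeR adjusted p of 0.411.

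Type VI collagen, which forms beaded filaments close to cells, had no gene past the threshold. Of 4 genes tested, 0 passed, 3 had a log2 fold change above 0 and 2 had an unadjusted p under 0.05. Col6a2 (chromosome 10, 76595756 to 76623630) stood at 61.9, 75.2, 72.1, 66.3 and 79.3 CPM in Kat6a WT and at 86.5, 76.0 and 84.1 CPM in Kat6a KO, with a single heart of each genotype in the overlap. The log2 fold change was 0.21 ± 0.07 (SE; edgeR adjusted p = 0.147). Col6a1 (chromosome 10, 76708792 to 76726044) stood at 37.2, 52.7, 47.8, 45.1 and 49.5 CPM and at 55.1, 49.2 and 54.7 CPM, a log2 fold change of 0.19 ± 0.09 (edgeR adjusted p = 0.351). The balance of these chains did not separate the genotypes: Col6a1 over Col6a2 per kilobase was 0.613 ± 0.04 in Kat6a WT hearts against 0.605 ± 0.01 in Kat6a KO hearts, with the Kat6a KO range of 0.597 to 0.610 inside that of the wild type, 0.563 to 0.658. Col6a3, the longest chain of the main trimer, was at 4.09 ± 1.08 and 5.57 ± 1.00 CPM.

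Transmembrane collagens, whose triple helix projects from the cell surface, gave the uncalled gene of smallest p. Of 4 genes tested, 0 passed and 2 had an unadjusted p under 0.05 in the edgeR test. Col23a1 (chromosome 11, 51289679 to 51583925) stood at 53.9, 57.9, 60.4, 64.8 and 62.0 CPM in Kat6a WT and at 53.3, 51.0 and 48.5 CPM in Kat6a KO. The highest Kat6a KO heart was just below the lowest wild-type heart. Its log2 fold change of -0.23 ± 0.06 did not pass (SE; edgeR adjusted p = 0.0605); the adjusted p was 0.0347 in DESeq2, 0.0409 without the count filter and 0.0179 without Kat6a WT replicate 1. Col13a1, found at cell adhesion sites, was at 55.1 ± 3.16 CPM in Kat6a WT and 49.8 ± 2.03 CPM in Kat6a KO, a log2 fold change of -0.14 ± 0.06 (edgeR adjusted p = 0.275). Col25a1 and Col17a1 were at or below 4.34 CPM on average.

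The short chain collagens of type VIII, which form hexagonal nets in vessel walls and below endothelium, were lower on average in Kat6a KO without passing in the main edgeR fit. In that fit 2 of the 2 genes tested had an unadjusted p under 0.05. Col8a1 was called by DESeq2 and without the count filter, and Col8a2 by DESeq2 and without Kat6a WT replicate 1. Col8a1 was 9.53 CPM in Kat6a WT replicate 2, 5.74 to 6.46 CPM in the other wild-type hearts and 3.37 to 5.18 CPM in Kat6a KO (log2 fold change -0.63 ± 0.19, edgeR adjusted p = 0.0807). Col8a2 was 8.87 to 16.9 CPM in Kat6a WT and 6.40 to 10.7 CPM in Kat6a KO, with overlap (log2 fold change -0.62 ± 0.22, edgeR adjusted p = 0.217). The endothelial markers Pecam1, Cdh5, Tie1, Tek, Npr3 and Nfatc1 summed to 934 to 1041 CPM in Kat6a WT and 937 to 992 CPM in Kat6a KO. Of these 6, 2 rose (Pecam1 and Tie1), beside 1.44% of all genes, and 1 fell (Npr3), beside 1.23%.

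Collagens that sit on the surface of fibrils, often called FACITs, did not pass either. Of 8 genes tested, 0 passed and 2 had an unadjusted p under 0.05, and 6 had a log2 fold change below 0, from -0.71 for Col20a1 to 0.28 for Col12a1. Col22a1, a collagen of muscle and tendon junctions, was at 17.6 ± 1.70 CPM in Kat6a WT and 14.6 ± 2.12 CPM in Kat6a KO (log2 fold change -0.28 ± 0.11, edgeR adjusted p = 0.229). Col14a1, which binds type I fibrils, was at 5.18 ± 1.45 and 3.62 ± 0.58 CPM (edgeR adjusted p = 0.275). The type IX chains Col9a1, Col9a2 and Col9a3, which coat type II fibrils, were at 24.5 ± 7.61, 14.1 ± 3.30 and 26.9 ± 4.91 CPM in Kat6a WT and at 20.6 ± 2.14, 12.2 ± 1.68 and 28.4 ± 0.79 CPM in Kat6a KO, and Kat6a WT replicate 2 was the highest heart for all 3. Col16a1, at 38.2 ± 6.34 and 33.2 ± 4.29 CPM, and Col12a1, at 36.0 ± 6.99 and 43.5 ± 10.9 CPM, were the most abundant by count. Col7a1, the anchoring fibril collagen of skin, was at 3.52 ± 0.97 and 3.16 ± 1.07 CPM.

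The 5 members under the count filter were close to absent at this depth. Col10a1, the collagen of hypertrophic cartilage, had 2 counts in Kat6a WT replicate 5 and 0 in the other hearts. Col6a4 had 5 counts in the same heart and 0 elsewhere. Col6a5 and Col28a1 had at most 4 counts in a heart, and Col19a1 at most 8. No fold change is given for these 5 genes.

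Of the genes that make, process, bind or break down collagen, P4ha1 rose and Ddr1 fell. Of 56 genes of a list spanning these steps, 49 were tested, of which 1 rose and 1 fell, beside 2.67% of all genes called. In the edgeR test 9 had an unadjusted p under 0.05, beside 14.2% of all genes. The median log2 fold change was 0.02. P4ha1 (chromosome 10, 59323197 to 59373304), a subunit of the enzyme that hydroxylates proline in collagen chains, stood at 91.6, 96.7, 86.0, 83.9 and 91.3 CPM in Kat6a WT and at 110.5, 106 and 102 CPM in Kat6a KO, without overlap. It rose by 0.24 ± 0.05 on the log2 scale (SE; edgeR adjusted p = 0.0125). Among the fits that left out hearts or added Xist RNA, its adjusted p missed the threshold on leaving out Kat6a KO replicate 1 (0.134) or replicate 2 (0.0574), without both hearts with Xist RNA (0.0621) and with that RNA as a covariate (0.0553). Ddr1 (chromosome 17, 35681567 to 35704741), a tyrosine kinase receptor that binds collagen, stood at 434, 471, 436, 420.0 and 438 CPM in Kat6a WT and at 389, 347 and 377 CPM in Kat6a KO. It fell by 0.24 ± 0.05 (edgeR adjusted p = 0.00700), and among the same fits the call was lost without Kat6a KO replicate 2 (0.0549).

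By step, 15 hydroxylase and glycosyltransferase genes had the 1 increase, and among 9 receptor and uptake genes Ddr1 was the 1 called. Of the 7 chaperone and secretion genes, 7 propeptide removal genes, 5 crosslinking genes and 6 breakdown genes tested, 0 passed (with 0, 2, 2 and 0 at an unadjusted p under 0.05). Pcolce, which enhances the removal of the fibrillar propeptides, stood at 75.8, 81.0, 82.4, 70.5 and 76.0 CPM in Kat6a WT and at 94.4, 85.4 and 86.7 CPM in Kat6a KO without overlap, a log2 fold change of 0.20 ± 0.06 (edgeR adjusted p = 0.0656). It was called by DESeq2 (0.0437) and without Kat6a WT replicate 2 (0.0415). Serpinh1, the collagen-specific chaperone, was at 1541 ± 64.8 CPM in Kat6a WT and 1479 ± 34.4 CPM in Kat6a KO.

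Promoter windows of 300 bases, from 250 before to 50 after a transcription start, were held in the RefSeq table of GRCm38.p6 for 35 of the 44 members, as 38 windows. Col26a1, Col1a1 and Col2a1 were among the members without a window, so the counts below do not cover them. The GC box letters GGGCGG were found on either strand in 23 of these 38 windows and in 35.7% of the 32851 windows of the table, which include those of non-coding genes. The letters CCAAT were found in 13 of 38 and in 37.4% of all, and TATAAA in 5 of 38 and in 13.6% of all. These are matches of letters only. The 3 motifs were searched separately.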

How the data were processed

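Total RNA of 8 E10.5 hearts was sequenced from TruSeq stranded libraries, per the labels' protocols. Reads were demultiplexed with bcl2fastq and counted with featureCounts on mm10, per the submitters' processing notes; the aligner, annotation, versions and strand setting were not known here. Per Entrez gene the authors deposited raw counts, with a gene length that the authors listed per gene. The 8 single-heart files held the same counts as the series table, which was used. Every column of counts matched a heart.

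Symbols and positions came from the RefSeq table of GRCm38.p6, the assembly mm10 stands for (25275 of 27179 IDs matched; the others held 1.05% of counts and stayed in the tests). edgeR 4.0.16 (R 4.3.3) was run on all genes: filterByExpr kept 15086, TMM scaling, robust quasi-likelihood fit, Kat6a KO against Kat6a WT over 8 hearts without covariates, Benjamini-Hochberg adjustment at 0.05. SE was computed by dividing the absolute log2 fold change by the root of the F statistic. The common dispersion gave a biological coefficient of variation of 9.10%. The spread between hearts, rather than depth, thus limits precision for genes of high count, while counting error weighs as much or more at a few CPM and below. Sampling noise was exceeded in each of the 28 library pairs. In simulated counts for 14925 genes, changes were planted only in genes of at least 2 CPM on average. The share of these changes recovered was 60% at 1.25-fold, 88% at 1.5-fold, 94% at 2-fold and 100% at 4-fold. False calls numbered 13 of 184. Recovery in genes of lower level was not measured.

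Members and lists were chosen with earlier results of these data known. Genes given by heart are the members past the threshold, the 3 of smallest p that miss it, the 5 of highest level, both chains of 4 pairs and, of the pathway list, those past the threshold with those of smallest p up to 3. Alternatives were DESeq2 1.42.0, limma 3.58.1 (voom with quality weights), other scalings and filters, no robust moderation, a replicate block, Xist RNA as a covariate, and leaving out hearts. Marker levels were summed per heart. Figures used matplotlib 3.10.9.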

Additional observations from a re-analysis of the deposited data

Results flagged for a closer look

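Of 43 wild-type groups examined (39 collagen genes and 4 chain ratios), 3 held a heart far from the others, by a test that chance passes in about 1 of 20 groups. All 3 were Kat6a WT replicate 2: Col8a1 stood at 9.53 CPM there against 5.74 to 6.46 CPM in the other wild-type hearts, Col25a1 at 5.27 CPM against 3.18 to 3.78 CPM, and Col4a3 at 1.20 CPM against 0.404 to 0.609 CPM.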

How the results depend on the processing

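Col26a1 kept its direction and its call under all 18 alternatives (log2 fold change -1.35 to -1.20; -1.35 to -1.21 on leaving out single hearts; adjusted p up to 2.57e-05), and its neighbours gave 0 calls under each. The number of collagen genes past the threshold was 1, and became 6 in DESeq2, 3 in limma voom, 5 without a count filter and 1 to 5 on leaving out single hearts; the cause was not tested. The number of pathway genes, here with the 6 EMI domain relatives, was 2, 4 in DESeq2 and 0 to 7 on leaving out single hearts. Over all genes 403 passed, and 194 to 496 on leaving out single hearts (194 without Kat6a KO replicate 1, 263 without replicate 3). With the replicate number as a block, 181 genes, 1 collagen gene and 0 pathway genes passed (adjusted p = 0.122 for P4ha1 and 0.0600 for Ddr1). Same-numbered hearts did not deviate together (correlations 0.07, -0.18 and -0.06) and no Kat6a KO heart correlated best with its own number. These 3 correlations gave no sign of pairing by number but are too few to exclude it. The 4 chain ratios moved by less than their spread on leaving out hearts. Genes at a few CPM or less are limited largely by counting error.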
